A study of Mus musculus with 12 samples.

Results

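The enzymes of glycolysis and of the pentose phosphate branch were followed, isoform by isoform, through normal colorectal tissue and polyps of mice. The set held 39 genes out of 30139 genes or transcripts on the array. A gene entered if the array design, or the transcript accession behind a probe, named it as one of the listed enzymes, with no threshold on its values. The list itself was drawn up with earlier results of these data known. The genes were read by 58 probes, 28 genes by 1 probe and 11 by several. Levels came from 12 single-colour arrays, 4 per group. The wild-type normal group was normal colorectum of C57BL/6N mice without the mutation (mice 102, 104, 105 and 108). The Apc normal group was normal colorectum of C57BL/6N mice heterozygous for Apc Δ716, and the Apc polyp group was colorectal polyps of such mice. The polyp and normal arrays of the mutant mice carry the same mouse numbers (103, 106, 107 and 110). All mice were female, 14 weeks old, and kept on CLEA CE-2 chow. Apc Δ716 is a truncating allele of the gene whose product limits Wnt signalling, and heterozygous carriers form intestinal polyps. Titles write the genotype as Apc+/- and the other labels as Apc+/Δ716. The labels give both mutant groups the same genotype, that of the mice. The Apc alleles of the polyp cells themselves were not measured.

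Glycolysis converts glucose to pyruvate in the cytosol. Hexokinases trap glucose as its phosphate, phosphofructokinase commits it to breakdown, and pyruvate kinase closes the sequence. Lactate dehydrogenase then reduces pyruvate to lactate, or pyruvate enters the mitochondrion through pyruvate dehydrogenase, which the Pdk kinases switch off. The pentose phosphate branch draws off glucose phosphate to make NADPH and ribose phosphate. Several steps have isoforms encoded by different genes with different tissue preferences, and many tumours are known for a high rate of glucose use and lactate release. Colonocytes of the healthy colon are known to burn bacterial butyrate as a main fuel.

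A level is a log2 signal after the 75th percentile of its own array was subtracted, a difference is in the same unit, and "called" means a Benjamini-Hochberg adjusted p under 0.05 in limma across 20082 genes. All 39 members were well above background on all 12 arrays by the probe used. The whole tissue was measured, so fewer cells of a type and less RNA per cell cannot be told apart. Cell markers differed widely between polyps and Apc normal tissue. Of 10 smooth muscle markers, 10 were called lower, such as Smtn (−2.44) and Mylk (−2.92), and their summed level was 8.28 to 8.73 in Apc normal tissue against 4.92 to 5.89 in polyps. Of 13 absorptive colonocyte markers, 12 were called lower, such as Slc26a3 (−5.31) and Muc3 (−2.55), with sums of 10.06 to 10.7 against 7.62 to 8.63. Goblet cell markers (8 of 8 called lower, Clca1 −1.96 and Fcgbp −2.06) and markers of enteric neurons and glia (10 of 12, such as Snap25 at −2.01) were lower too. All 10 proliferation markers were called higher, such as Top2a (1.87) and Bub1 (2.15), with sums of 4.77 to 4.96 against 5.88 to 5.98. Of 10 neutrophil markers, 6 were called higher, such as Mmp9 (4.79) and Cxcr2 (at least 12.1-fold), with sums of 4.59 to 5.43 against 5.74 to 7.14. Of 8 general epithelial markers, 4 were called lower, such as Krt19 (−0.71) and Krt8 (−0.58). The Apc normal array of mouse 107 stood apart for several members, and it also held the highest adipocyte sum (4.18, against 1.18 to 3.09 on the other Apc normal arrays). The part of these cell types in the results on the members was not tested.

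In polyps, most of the enzymes that changed were lower than in the normal tissue of the same mutants. Eno3 and Pdk2 had the widest falls among called members and Pfkfb3 the widest rise. Of the 39 members, 17 were called lower (43.6%) where 24.9% of all genes tested were. Only 3 were called higher (7.69%) where 20.5% of all genes were: Pfkfb1, Pfkfb3 and G6pdx. The other 19 were not called. The median difference of the members was −0.31, against −0.06 over all genes. The polyp and Apc normal values did not overlap for 23 members, and 45.1% of all genes tested showed such a gap. The 20 called members, all without overlap, moved in the same direction in 4 of 4 mice. That agreement is fixed by the gap and adds nothing to it. The 7 pentose phosphate genes had a median of −0.06 with 1 called, and the other 32 a median of −0.44 with 19 called. After quantile normalization 5 members were called higher and 11 lower, so the higher share of the calls was 31.2% in place of 15.0%. Each slide alone has 2 arrays per group, and there the calls were 2 higher and 3 lower (mice 103 and 106), and 0 higher and 2 lower (mice 107 and 110, where 16 members had an unadjusted limma p under 0.05).

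**Figure D1:**
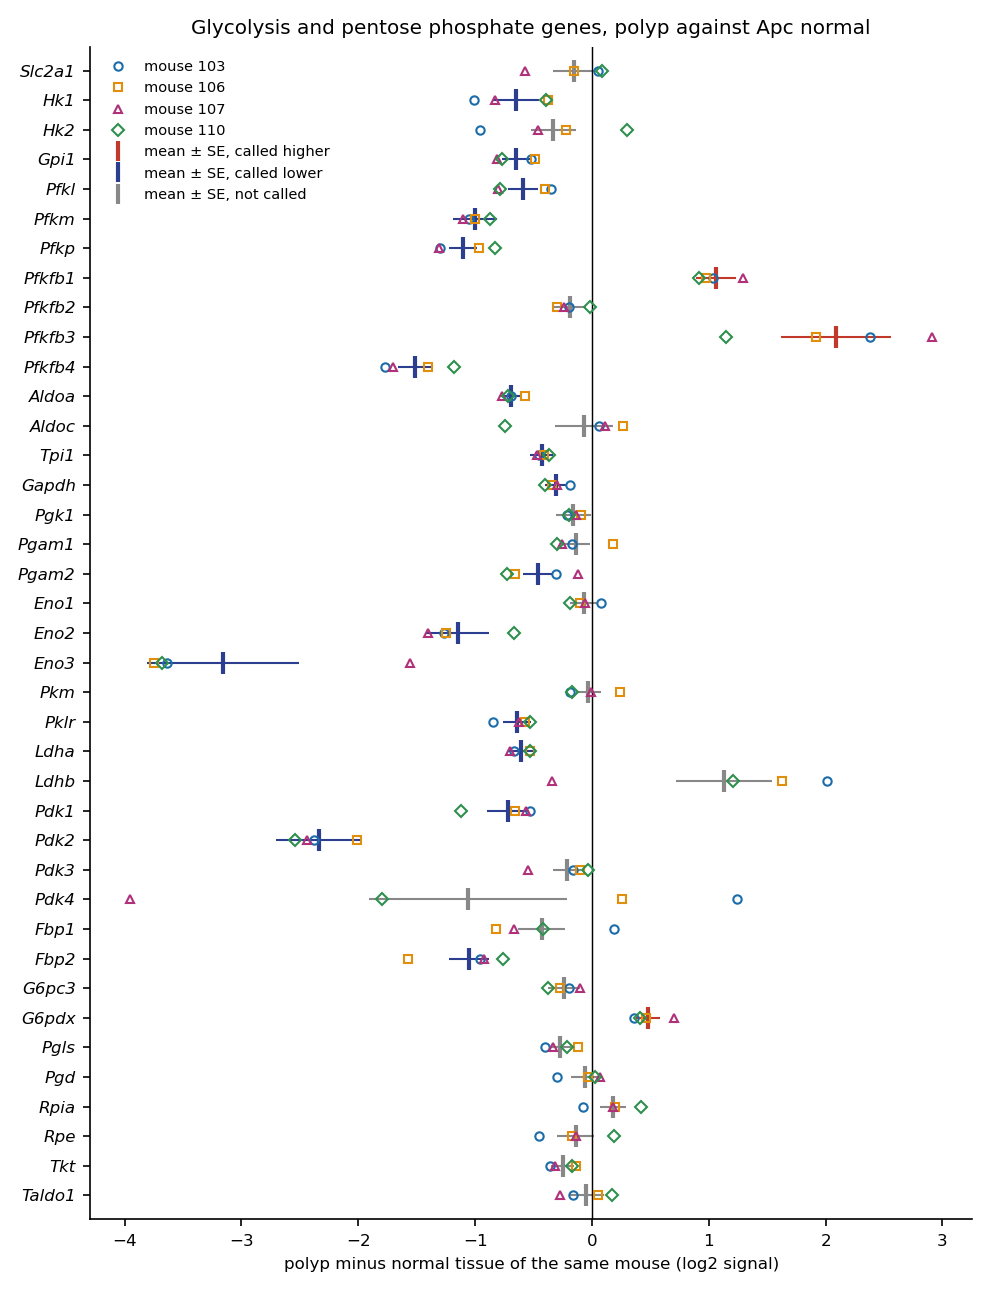
Difference in log2 signal between the polyp and the normal tissue of each mouse (symbols, 4 mice), with the mean ± SE of the fit (bars), for the 39 members in pathway order. Eno3 (−3.16), Pdk2 (−2.34) and Pfkfb4 (−1.51) lie farthest to the left among called members and Pfkfb3 (2.09) farthest to the right, while the pentose phosphate genes at the foot stay close to 0.

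Glucose entry and trapping came first in the pathway. Slc2a1, the widespread glucose transporter GLUT1, read 3.21, 3.51, 3.68 and 3.71 in Apc normal tissue and 3.26, 3.35, 3.11 and 3.79 in polyps of mice 103, 106, 107 and 110. These values overlapped, with a difference of −0.15 ± 0.18 (SE, 4 against 4 arrays; limma adjusted p = 0.539). Hk2, the inducible hexokinase raised in many tumours, read 2.08, 1.93, 2.09 and 1.67 in normal tissue and 1.12, 1.71, 1.64 and 1.96 in polyps. It was not called either (−0.33 ± 0.19, limma adjusted p = 0.191).

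Hk1, the housekeeping hexokinase bound to mitochondria, was read by 3 probes that did not give the same size of change. The probe used, the brightest, is placed by the array design at chr5:22118404-22118463 (mm9), while the other probes lie on chromosome 10, where Hk1 is, at chr10:61731856-61731915 and chr10:61732717-61732776. The first 30 of the 60 bases of each are printed because the result turns on which probe is read; none of the pairs shares more than 5 bases in a row.
A_55_P2037398: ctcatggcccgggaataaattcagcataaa
A_55_P2027999: ggaatctcccatcgctttagtgagccattg
A_55_P2118843: aaggaactgtcaccaaagtgtaccgtgtcc
On the probe placed on chromosome 5 the Apc normal levels were 6.00, 5.28, 6.05 and 5.37 and the polyp levels 4.99, 4.91, 5.22 and 4.98. The groups did not overlap, though 1 normal array lay only just above the highest polyp, and Hk1 fell by 0.65 ± 0.20 (1.57-fold, limma adjusted p = 0.0298). That call did not survive the omission of any of 5 single arrays, normal tissue of mice 103 and 107 and polyps of mice 103, 106 and 110 (limma adjusted p = 0.0645 to 0.0781), nor median scaling (0.0751) or quantile normalization (−0.28, 0.257). The brighter probe on chromosome 10 read 4.59, 4.29, 4.53 and 4.58 in Apc normal tissue and 3.01, 2.96, 2.71 and 3.25 in polyps. The gap between the groups there was wide, with a fall of 1.51 ± 0.14 (2.86-fold, limma adjusted p = 1.46e-04 over all detected probes). The third probe fell by 1.52 ± 0.15 (limma adjusted p = 2.12e-04). Against wild-type tissue the chromosome 10 probes fell by 1.57 each, while the chromosome 5 probe was not called (−0.52, limma adjusted p = 0.0557; −0.65 and 0.0300 without the wild-type array of mouse 105).

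**Figure D2:**
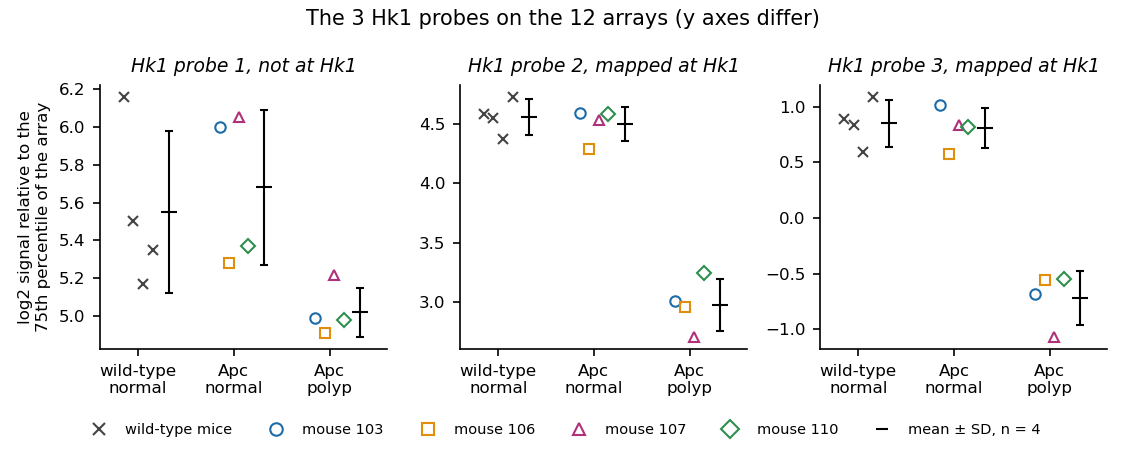
Log2 signal of the 3 Hk1 probes on each array (symbols; y axes differ) with the mean ± SD of each group of 4. Probes 2 and 3, placed on the chromosome of the gene, fall from about the wild-type level in Apc normal tissue to a lower level in all 4 polyps (−1.51 and −1.52), and probe 1, placed elsewhere, by 0.65 with wide scatter in normal tissue.

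The steps around phosphofructokinase were lower in polyps. Gpi1, which interconverts glucose and fructose phosphates, read 6.08, 6.04, 6.47 and 6.38 in Apc normal tissue and 5.56, 5.54, 5.66 and 5.61 in polyps. The polyp values lay close together, all below the normal ones, and Gpi1 fell by 0.65 ± 0.12 (limma adjusted p = 0.00380). Its other 2 probes fell by 0.66 and 0.67, but the 3 probes share 40 to 47 bases in a row and are not independent. After quantile normalization the difference was −0.29 and the call was lost (limma adjusted p = 0.0942).

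All 3 phosphofructokinase genes fell. Pfkm, the muscle-type subunit, read 0.22, −0.22, 0.48 and 0.20 in Apc normal tissue and −0.83, −1.22, −0.62 and −0.68 in polyps. It fell by 1.0 ± 0.19 (2.01-fold, limma adjusted p = 0.00350), by 0.87 to 1.10 in each mouse. Pfkp, the platelet-type subunit, went from 2.30, 2.02, 2.39 and 2.05 to 1.0, 1.05, 1.08 and 1.21, a fall of 1.10 ± 0.12 (2.15-fold, limma adjusted p = 2.87e-04). On a second, much dimmer Pfkp probe the difference was −0.37 ± 0.16 and was not called (limma adjusted p = 0.0916). Pfkl, the liver-type subunit, fell least, by 0.59 ± 0.13 from 2.33, 2.52, 2.82 and 2.82 to 1.98, 2.12, 2.02 and 2.03 (limma adjusted p = 0.00839). Pfkl lost its call without both arrays of mouse 107 (−0.51, limma adjusted p = 0.0503).

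The 4 Pfkfb genes encode bifunctional enzymes that make and remove fructose bisphosphate of the regulatory kind, the strongest activator of phosphofructokinase, and they moved apart. Pfkfb3, the isoform with the highest ratio of kinase to phosphatase activity, read 1.01, 1.91, 1.09 and 1.34 in polyps and −1.38, −0.01, −1.81 and 0.18 in the normal tissue of the same mice. Every polyp was above every normal array, while normal tissue split between mice 106 and 110, near 0, and mice 103 and 107, near the wild-type values of −1.80 to −1.34. Pfkfb3 rose by 2.09 ± 0.47 (4.26-fold, limma adjusted p = 0.00767), by 1.15 to 2.91 within a mouse. A second Pfkfb3 probe was well above background on 5 arrays only, so its difference is not given. In normal tissue of mice 103, 106, 107 and 110 the macrophage markers summed to 4.85, 5.72, 4.47 and 5.44, higher in mice 106 and 110 as Pfkfb3 was, and the neutrophil markers to 5.43, 5.4, 4.59 and 5.39. In polyps the macrophage sums were 4.97 to 5.80. The part of these cells in the Pfkfb3 values was not tested.

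Pfkfb1, the liver and muscle isoform, also rose. Its levels were −2.35, −2.33, −2.41 and −1.82 in Apc normal tissue and −1.31, −1.35, −1.13 and −0.90 in polyps, with no overlap. The rise was 1.06 ± 0.17 (2.08-fold, limma adjusted p = 0.00158). Pfkfb4, an isoform known for induction by hypoxia, went the other way, from 1.82, 1.92, 2.17 and 1.84 to 0.05, 0.52, 0.47 and 0.66. It fell by 1.51 ± 0.15 (2.85-fold, limma adjusted p = 2.30e-04), and it was the only member called in polyps against Apc normal tissue under every one of the 24 alternatives. A second Pfkfb4 probe was well above background on 2 arrays only and was not tested. Pfkfb2, the heart isoform, read −2.42, −2.73, −2.64 and −2.85 in normal tissue and −2.62, −3.02, −2.88 and −2.87 in polyps, and was not called (−0.19 ± 0.14, limma adjusted p = 0.286).

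**Figure D3:**
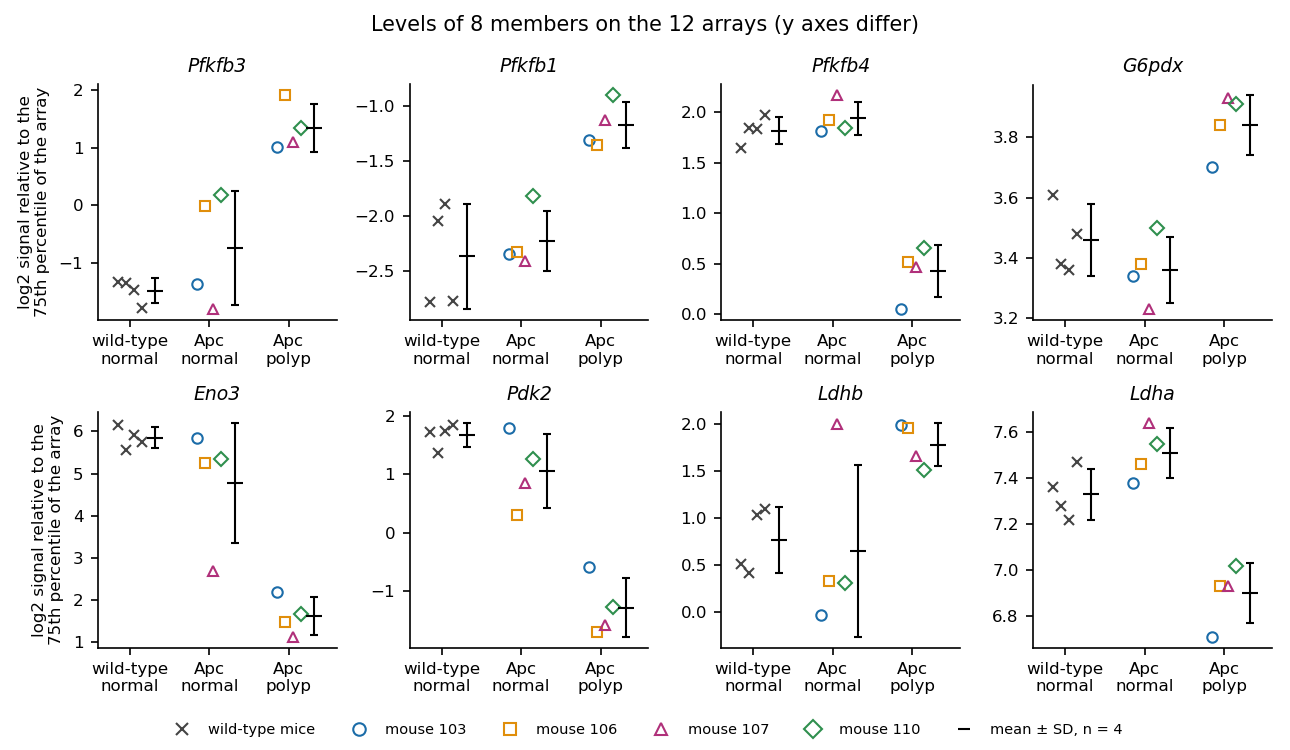
Log2 signal of 8 members on the 12 arrays (symbols; y axes differ), with the mean ± SD of each group of 4. Pfkfb3, Pfkfb1 and G6pdx are higher in all 4 polyps than on any normal array, Pfkfb4, Eno3, Pdk2 and Ldha are lower, and for Ldhb the Apc normal array of mouse 107 (2.0) reaches the polyps (1.51 to 1.99).

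In the middle of the pathway the abundant isoforms fell modestly. Aldoa, the main aldolase outside the liver, went from 7.46, 7.44, 7.56 and 7.57 to 6.76, 6.86, 6.79 and 6.85, a fall of 0.69 ± 0.09 with little scatter (1.61-fold, limma adjusted p = 5.75e-04). Over the 24 alternatives the Aldoa difference ranged from −0.74 to −0.31. Against wild-type tissue it was −0.20 and not called after normexp correction (limma adjusted p = 0.0586). Aldoc, the brain aldolase, read 2.94 to 4.03 in normal tissue and 3.05 to 3.73 in polyps (−0.07 ± 0.25, limma adjusted p = 0.826). Tpi1, triose phosphate isomerase, went from 5.90, 6.02, 6.07 and 6.03 to 5.45, 5.61, 5.60 and 5.66 and fell by 0.43 ± 0.10 (limma adjusted p = 0.00770), by 0.46 ± 0.11 on a second probe. The Tpi1 call was lost after quantile normalization (−0.04, limma adjusted p = 0.735).

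Gapdh, Pgk1 and Eno1 have processed copies elsewhere in the genome, and the probe used for each is placed by the array design on another chromosome than the gene. Gapdh read 7.58, 7.77, 7.79 and 7.78 in Apc normal tissue and 7.39, 7.43, 7.48 and 7.39 in polyps on that probe, a fall of 0.31 ± 0.09 (limma adjusted p = 0.0275). Its other 6 probes gave −0.23 to 0.02 and none was called, and the sign turned under quantile normalization (0.21) and normexp correction (0.18). The Gapdh call was also lost on omission of any of 6 single arrays, normal tissue of mice 106, 107 and 110 and polyps of mice 103, 106 and 110 (limma adjusted p = 0.0564 to 0.0709). Pgk1, phosphoglycerate kinase, read 6.05 to 6.53 in normal tissue and 5.84 to 6.33 in polyps (−0.16 ± 0.15, limma adjusted p = 0.431). Its other probe, on the X chromosome with the gene, gave −0.17 and shares 53 bases with the first. Eno1, the widespread enolase, read 6.34 to 6.76 against 6.42 to 6.57 (−0.07 ± 0.12, limma adjusted p = 0.662).

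Pgam1, the main phosphoglycerate mutase, read 5.16 to 5.39 in normal tissue and 4.95 to 5.34 in polyps (−0.14 ± 0.12, limma adjusted p = 0.358). Pgam2, the muscle mutase, was dim, at −4.12, −4.10, −4.30 and −4.15 in normal tissue and −4.44, −4.76, −4.41 and −4.87 in polyps. Pgam2 fell by 0.46 ± 0.13 (limma adjusted p = 0.0248), a call that was lost with mice as a block (0.0520) and on omission of any of 5 single arrays, normal tissue of mice 103, 106 and 110 and polyps of mice 106 and 110 (0.0519 to 0.0726).

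The tissue-restricted enolases fell far more than Eno1. Eno3, the muscle enolase, read 5.84, 5.24, 2.69 and 5.35 in Apc normal tissue and 2.20, 1.49, 1.13 and 1.66 in polyps. The normal array of mouse 107 lay between the other normal arrays and the polyps, and no polyp reached it. Eno3 fell by 3.16 ± 0.65 (8.92-fold, limma adjusted p = 0.00505), and by 3.85 without that array. Eno2, the enolase of neurons and neuroendocrine cells, read −1.85, −1.08, −1.38 and −1.31 in normal tissue and −3.13, −2.34, −2.77 and −1.99 in polyps. Every polyp was lower than every normal array, and Eno2 fell by 1.15 ± 0.27 (2.22-fold, limma adjusted p = 0.00932), though without both arrays of mouse 107 the adjusted p was 0.0537. Markers of enteric neurons and glia had sums of 5.41 to 6.05 in Apc normal tissue and 3.34 to 4.0 in polyps. Skeletal muscle markers, 5 of 8 called lower (Ckm −3.52, above background in 2 polyps only, and Acta1 −1.99) and 1 higher, had sums of 1.29 to 2.0 and 0.41 to 0.87, and Myh1 and Myh4 were not above background in any group. On the normal array of mouse 107 the sums of smooth muscle (8.67) and skeletal muscle markers (1.52) lay within the range of the other Apc normal arrays. The part of muscle and nerve cells in the enolase values, that of mouse 107 included, was not tested.

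At the end of the pathway, Pkm, the pyruvate kinase of most tissues and tumours, was not called, at 5.84, 5.49, 5.72 and 5.91 in normal tissue and 5.65, 5.73, 5.72 and 5.74 in polyps (−0.03 ± 0.11, limma adjusted p = 0.839), though after quantile normalization it was called higher (0.35, 0.0477). The single Pkm probe does not separate the splice forms PKM1 and PKM2. Pklr, the liver and red cell pyruvate kinase, went from −1.16, −1.60, −1.33 and −1.36 to −2.01, −2.17, −1.94 and −1.89. Pklr fell by 0.64 ± 0.12 (1.56-fold, limma adjusted p = 0.00391).

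Of the lactate dehydrogenase subunits, Ldha fell and Ldhb was not called. Ldha, the subunit known for favouring lactate production, read 7.38, 7.46, 7.64 and 7.55 in Apc normal tissue and 6.71, 6.93, 6.93 and 7.02 in polyps. All 4 polyps were lower, by 0.53 to 0.70 within a mouse, and Ldha fell by 0.61 ± 0.11 (1.52-fold, limma adjusted p = 0.00277). Its other probes fell by 0.72 ± 0.13 and 0.80 ± 0.14 (limma adjusted p = 0.00238 and 0.00233 over all detected probes), while after quantile normalization the difference was −0.23 and not called (limma adjusted p = 0.114). Ldhb, the heart-type subunit, read −0.03, 0.33, 2.0 and 0.31 in normal tissue and 1.99, 1.96, 1.66 and 1.51 in polyps. The normal array of mouse 107 alone reached the polyp range, and Ldhb was not called (1.13 ± 0.41, limma adjusted p = 0.0559). Without that array the difference was 1.58 (limma adjusted p = 5.53e-04), and without both arrays of mouse 107 it was 1.62 (0.00211). Ldhb was called higher under 7 of the 24 alternatives. With all arrays kept, these included quantile normalization (1.22, limma adjusted p = 0.0398), normexp correction (1.14, 0.0371) and the fit of all 12 arrays (1.13, 0.0266).

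Of the 4 kinases that inactivate pyruvate dehydrogenase, Pdk1 and Pdk2 fell. Pdk2, the widely expressed isoform, read 1.80, 0.31, 0.86 and 1.27 in Apc normal tissue and −0.58, −1.70, −1.58 and −1.27 in polyps. Although normal tissue was scattered, every polyp was 2.01 to 2.54 below the normal tissue of its own mouse. Pdk2 fell by 2.34 ± 0.36 (5.07-fold, limma adjusted p = 0.00126), and by 2.07 ± 0.33 on a second probe (0.00159 over all detected probes). Pdk1, known as a hypoxia-induced isoform, went from −0.05, −0.11, −0.02 and 0.63 to −0.58, −0.77, −0.57 and −0.49 and fell by 0.72 ± 0.18 (limma adjusted p = 0.0119). Pdk3 lay at 0.50 to 0.97 in normal tissue and 0.42 to 0.47 in polyps without overlap, but was not called (−0.21 ± 0.12, limma adjusted p = 0.199). Pdk4, the isoform induced by fasting and fat use, read −3.34, −2.01, 1.12 and −1.16 in normal tissue and −2.10, −1.75, −2.83 and −2.96 in polyps. The highest value was again the normal array of mouse 107, the array with the highest adipocyte sum. The Pdk4 difference of −1.06 ± 0.85 was not called (limma adjusted p = 0.342), and it was −0.24 without that array, 0.75 on the slide of mice 103 and 106, and −2.88 on that of mice 107 and 110.

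The phosphatases that oppose glycolysis were represented by 3 genes. Fbp2, the muscle fructose bisphosphatase, read 2.31, 2.29, 2.31 and 2.24 in Apc normal tissue and 1.35, 0.72, 1.40 and 1.48 in polyps. The normal values were nearly equal and the polyps all lower, with a fall of 1.05 ± 0.17 (2.07-fold, limma adjusted p = 0.00173). Fbp1, the liver form, read −2.0 to −1.63 in normal tissue and −2.77 to −1.81 in polyps and was not called (−0.43 ± 0.20, limma adjusted p = 0.117), except without the polyp array of mouse 103 (−0.59, 0.0352). G6pc3, the widespread glucose phosphatase, read 2.65 to 3.10 against 2.52 to 2.90 (−0.24 ± 0.14, limma adjusted p = 0.191).

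In the pentose phosphate branch only the committed step was called. G6pdx, glucose phosphate dehydrogenase, which makes NADPH, read 3.34, 3.38, 3.23 and 3.50 in Apc normal tissue and 3.70, 3.84, 3.93 and 3.91 in polyps. Polyps were higher in each mouse, by 0.36 to 0.70, and G6pdx rose by 0.48 ± 0.10 (1.40-fold, limma adjusted p = 0.00640). The next oxidative enzymes were not called: Pgls, the lactonase, gave −0.27 ± 0.10 (limma adjusted p = 0.0529) and Pgd, the second NADPH-making dehydrogenase, −0.06 ± 0.12 (0.721). Pgls values did not overlap, at 1.91 to 2.13 in normal tissue and 1.69 to 1.80 in polyps, and Pgls was called lower in the fit of all 12 arrays (limma adjusted p = 0.0414).

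The non-oxidative enzymes, which shuffle sugar phosphates back to glycolysis, were not called, and their means lay within 0.25 of Apc normal tissue. Rpia, the ribose phosphate isomerase, differed by 0.18 ± 0.11 (limma adjusted p = 0.212) and Rpe, the epimerase, by −0.14 ± 0.16 (0.490). Tkt, transketolase, read 4.83 to 5.15 in normal tissue and 4.68 to 4.82 in polyps without overlap, and was not called (−0.25 ± 0.10, limma adjusted p = 0.0870). It was called lower without the normal array of mouse 106 (−0.31, limma adjusted p = 0.0450) and in a limma fit with a variance trend and robust eBayes (−0.25, 0.0389). Taldo1, transaldolase, differed by −0.05 ± 0.15 (limma adjusted p = 0.803).

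Ratios of isoforms on the same array do not depend on a scaling constant between arrays, and they show unequal change, not which isoform moved. Of 17 isoform pairs, 9 had ratios that did not overlap between polyps and Apc normal tissue. Of single genes tested 45.1% did not overlap, and the share for gene pairs in general was not computed, so the count says nothing particular to isoforms. Any pair without overlap has an exact two-sided permutation p of 0.0286, the smallest that 4 against 4 arrays allow (70 splits). That p is fixed by the gap and adds nothing to it. The permutation did not use the pairing by mouse. There was no adjustment over the pairs, which were chosen with earlier results of these data known. The widest shift was Pfkfb4 over Pfkfb3, lower in polyps by 4.15, 3.31, 4.60 and 2.34 in mice 103, 106, 107 and 110, a 12.1-fold change of the ratio (mean −3.60 ± 0.57). Eno3 over Eno1 changed by −3.71, −3.66, −1.5 and −3.49 (mean −3.09 ± 0.78), with mouse 107 the least. Eno2 over Eno1 changed by −1.08 ± 0.24, so both restricted enolases lost ground to the widespread one.

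Ldhb over Ldha rose by 2.69, 2.16, 0.36 and 1.74 in the same mice, a 3.33-fold shift towards Ldhb (1.74 ± 0.44) that was smallest in mouse 107. Pdk2 over Pdk1 changed by −1.63 ± 0.39, by −1.88 to −1.35 within a mouse. Pfkfb2 over Pfkfb3 changed by −2.28 ± 0.63, Pfkp over Pfkl by −0.52 ± 0.16, Pklr over Pkm by −0.61 ± 0.09 and Fbp2 over Fbp1 by −0.62 ± 0.15. The gap for Pfkp over Pfkl was narrow, with −0.78 the lowest normal ratio and −0.82 the highest in polyps. In mouse 110 that ratio changed by only −0.04. On the dimmer Pfkp probe Pfkp differed by −0.37, less than Pfkl (−0.59), and the ratio on that probe alone was not computed. Hk2 over Hk1 shifted by 0.32 ± 0.24 with overlap on the probe used for Hk1. With the Hk1 probe on chromosome 10 it rose by 0.62, 1.11, 1.36 and 1.62, without overlap (1.18 ± 0.22, 2.26-fold). Pfkm over Pfkp (0.10 ± 0.15) and Pdk4 over Pdk1 (−0.35 ± 0.99) overlapped, the latter with signs that differed between mice.

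**Figure D4:**
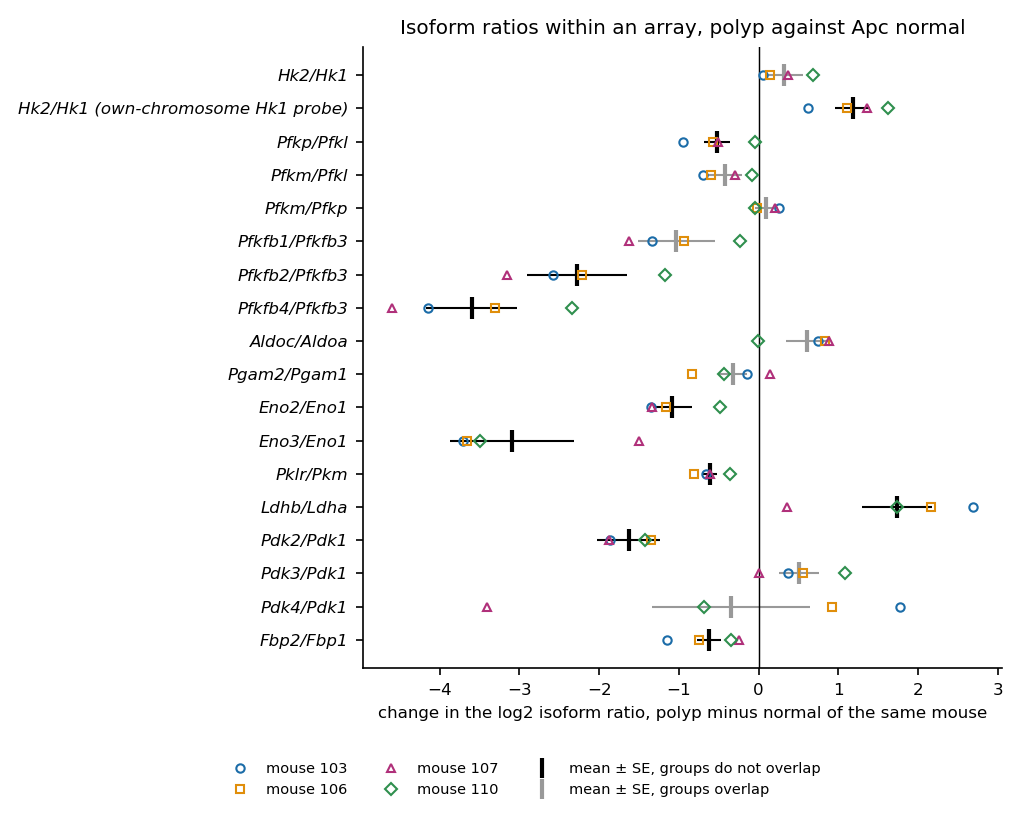
Change in the log2 ratio of 2 isoforms on the same array between the polyp and the normal tissue of each mouse (symbols, 4 mice), with mean ± SE over 4 against 4 arrays (bars; black where the groups do not overlap). Pfkfb4 over Pfkfb3 lies farthest to the left (−3.60) and Ldhb over Ldha farthest to the right (1.74).

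Normal tissue of the mutants was compared with wild-type normal tissue to see whether the members already differed without a polyp. Of 39 members 0 were called by limma (30 genes, 0.149% of those tested, were called higher and 4, 0.0199%, lower), and 5 had an unadjusted p under 0.05: Pfkm, Tpi1, Pgk1, Eno1 and Fbp2. Pfkm read 0.67 to 1.21 in wild-type tissue and −0.22 to 0.48 in Apc normal tissue, without overlap (−0.67 ± 0.18, limma adjusted p = 0.151). Tpi1 (0.28), Fbp2 (0.28) and Pgd (0.23) did not overlap either, and 10.3% of all genes tested showed such a gap. The difference farthest from 0 was that of Pdk4 (1.45 ± 0.82, limma adjusted p = 0.403), with mouse 107 at 1.12 against −3.01 to −2.48 in wild-type tissue. Pfkfb3 lay at −1.34, −1.35, −1.47 and −1.80 in wild-type tissue, level with Apc normal mice 103 and 107 and below mice 106 and 110 (0.74 ± 0.45, limma adjusted p = 0.431). All wild-type arrays were on a slide of their own, so slide and genotype cannot be told apart. Of 5 red blood cell markers tested, 2 were called higher in Apc normal than in wild-type tissue, with sums of 4.58 to 5.31 against 2.42 to 3.44, and their part in these values was not tested.

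Polyps were also compared with wild-type normal tissue. The polyp arrays are the same as above, so these values are no second test of the change. Of 39 members 15 were called lower (38.5%, against 32.8% of all genes tested) and 5 higher (12.8%, against 27.4%), with a median of −0.15. The groups did not overlap for 20 members, as they did not for 56.7% of all genes tested. Eno3 fell by 4.23 ± 0.23 (18.7-fold, limma adjusted p = 6.19e-06) from 6.16, 5.57, 5.91 and 5.76 in mice 102, 104, 105 and 108, Pdk2 by 2.95 ± 0.24 (3.11e-05) and Pfkm by 1.68 ± 0.17 (8.49e-05). Wild-type tissue lacked the scatter of mouse 107, and Ldhb, at 0.51, 0.42, 1.03 and 1.10 there, was called higher in polyps (1.02 ± 0.19, limma adjusted p = 0.00220). Pfkfb3 rose by 2.83 ± 0.21 (7.10-fold, limma adjusted p = 2.03e-05), Pfkfb1 by 1.20 and G6pdx by 0.38.

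Some members were called in only 1 of the comparisons, and whether their differences were unequal was not tested. Tpi1 (−0.15), Pgam2 (−0.07) and Pdk1 (−0.24) were not called against wild-type tissue. Eno1 was called higher (0.24, limma adjusted p = 0.0349), and G6pc3 (−0.40) and Pfkfb2 (−0.30) lower. The Eno1 and Pfkfb2 calls each failed with 6 of the 8 arrays left out in turn (limma adjusted p = 0.0593 to 0.0852 and 0.0797 to 0.102), all but the wild-type array of mouse 108 and the polyp array of mouse 103 for Eno1, and all but the wild-type array of mouse 102 and the polyp array of mouse 103 for Pfkfb2. Gapdh (−0.21, 0.0454) lost its call with any of the 8 left out. Pgk1 was called without the polyp array of mouse 103 (0.39, 0.0241) and Fbp1 without the wild-type array of mouse 108 (−0.77, 0.0417). After quantile normalization 13 members were called higher and 10 lower, a higher share of 56.5% in place of 25%. Bright members such as Gapdh (0.37) and Pgk1 (0.63) then lay on the higher side. Tpi1 (0.24), Pkm (0.29), Tkt (0.33) and Taldo1 (0.27), not called and below 0 under the main processing, were called higher there. Pkm (0.25), Tkt (0.35) and Taldo1 (0.21) were called higher after normexp correction too.

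Other genes that feed or leave these pathways were taken from lists of 101 genes, of which 96 were tested. In polyps against Apc normal tissue 40 were called lower (41.7%, against 24.9% of all genes tested) and 13 higher (13.5%, against 20.5%), with a median of −0.43. The counts of each list below stand against the same shares of all genes. Among carriers of sugars and monocarboxylates, 2 of 11 rose and 6 fell. Slc16a3, the lactate exporter MCT4, rose by 2.36 ± 0.31 (limma adjusted p = 6.73e-04) and Slc2a3, the glucose transporter of neurons and leukocytes, by 1.33 ± 0.44 (0.0383). Slc5a8, a monocarboxylate importer that takes up butyrate, fell by 3.14 ± 0.25 (9.02e-05) and Slc5a1, the sodium-coupled glucose transporter, by 1.93 ± 0.21 (3.03e-04).

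Of 11 genes for pyruvate dehydrogenase and the entry of pyruvate into mitochondria, 7 were called lower, 1 higher and 3 were not called. Pcx, pyruvate carboxylase, fell by 2.27 ± 0.27, and Mpc2, a subunit of the mitochondrial pyruvate carrier, by 1.04 ± 0.10 (limma adjusted p = 4.05e-04 and 2.01e-04). Pdp1, the phosphatase that reactivates pyruvate dehydrogenase, rose by 0.73 ± 0.19 (0.0144). Of 10 genes of other hexose phosphorylation and fructose use, 4 fell and 2 rose. Galm, the galactose mutarotase, fell by 2.03 ± 0.17, while Hk3, a hexokinase of myeloid cells, rose by 1.40 ± 0.40 and Adpgk, a glucokinase that uses ADP, by 0.78 ± 0.11. The neutrophil markers given above were higher on the same polyp arrays, and their part in the Hk3 value was not tested.

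Of 16 glycogen and hexosamine genes tested, 10 fell and 1 rose. Gfpt1, the entry enzyme of the hexosamine branch, fell by 1.90 ± 0.14 (limma adjusted p = 7.57e-05) and Uap1, which makes the activated amino sugar, by 1.34 ± 0.18, while Gnpda2, which returns glucosamine phosphate to glycolysis, rose by 0.40 ± 0.11. Of 7 genes of gluconeogenesis and glycerol phosphate, Pck1, the gluconeogenic carboxykinase, fell by 3.56 ± 0.39 (3.00e-04), Slc37a4, a glucose phosphate carrier, fell by 0.68 and Gpd1, glycerol phosphate dehydrogenase, rose by 0.73. Among 10 further pentose phosphate and NADPH genes, H6pd, the G6pdx-like enzyme of the endoplasmic reticulum, rose by 1.19 ± 0.24 (limma adjusted p = 0.00512) and Idh1, an NADPH-making dehydrogenase, by 0.74 ± 0.13. Shpk, sedoheptulokinase, fell by 2.03 ± 0.18 and Rbks, ribokinase, by 1.5 ± 0.15.

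Regulators of the pathway, 19 genes, gave 2 called higher and 8 lower. Myc, a Wnt target and an activator of glycolytic genes, rose by 1.81 ± 0.12 (limma adjusted p = 6.17e-05) and Trp53, which encodes p53, by 1.17 ± 0.15. Ppard, a nuclear receptor, fell by 1.80 ± 0.23 and Txnip, which restrains glucose uptake, by 1.63 ± 0.24. Of 13 other hypoxia-responsive genes, P4ha2 (1.35 ± 0.35) and Ddit4 (1.10 ± 0.28) rose and Car9 (−0.90 ± 0.22) fell, and 10 were not called, with a median of −0.03.

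The promoters of the members were searched for CACGTG, the E-box bound by Myc and related factors, and for ACGTG on either strand, the core of the hypoxia response element, which every CACGTG also holds. RefSeq start sites on GRCm38.p6 matched all 39 members, with 60 promoters of 300 bases (250 before and 50 after the start). CACGTG was found for 7 members (17.9%, against 8.09% of all genes in the table), and ACGTG for 18 (46.2%, against 21.8%). A gene counted if any of its promoters matched. By promoter the shares were 11.7% against 7.15% for CACGTG and 36.7% against 19.6% for ACGTG. The 7 were Pfkfb3, called higher in polyps against Apc normal tissue, Pfkm, Ldha, Pdk2 and Fbp2, called lower, and Pfkfb2 and G6pc3, not called. The 250 bases before the start are printed for 3 of them, because the same capitalised motif lies upstream of 1 gene that rose and 2 that fell. They are chr2:11502091-11502340 (minus strand) for Pfkfb3, chr7:46845554-46845803 (plus strand) for Ldha and chr11:95041372-95041621 (minus strand) for Pdk2, with CACGTG in capitals.
Pfkfb3: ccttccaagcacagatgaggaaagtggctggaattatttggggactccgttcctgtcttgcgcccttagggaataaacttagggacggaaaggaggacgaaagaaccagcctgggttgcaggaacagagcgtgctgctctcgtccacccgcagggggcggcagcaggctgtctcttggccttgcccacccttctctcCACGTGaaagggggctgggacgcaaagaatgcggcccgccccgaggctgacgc
Ldha: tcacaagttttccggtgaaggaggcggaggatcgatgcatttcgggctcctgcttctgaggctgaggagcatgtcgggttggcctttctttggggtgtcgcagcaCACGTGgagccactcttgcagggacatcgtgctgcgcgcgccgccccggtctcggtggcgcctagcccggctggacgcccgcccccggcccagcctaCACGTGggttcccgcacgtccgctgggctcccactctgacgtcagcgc
Pdk2: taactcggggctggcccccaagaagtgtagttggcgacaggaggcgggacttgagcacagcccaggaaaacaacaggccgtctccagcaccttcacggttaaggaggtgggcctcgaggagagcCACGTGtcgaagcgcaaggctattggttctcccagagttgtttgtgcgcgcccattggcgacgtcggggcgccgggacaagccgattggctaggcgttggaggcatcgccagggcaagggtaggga
Between the motif nearest the start and the start itself lie 47 bases in Pfkfb3, 42 in Ldha, which holds 2 copies, and 120 in Pdk2. These matches describe letters in the sequence; binding was not measured.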

How the data were processed

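Total RNA of 12 colorectal samples was labelled with Cy3 and hybridised to Agilent mouse arrays of 43020 gene spots each. Spot intensity was written by Agilent's Feature Extraction, version 10.7.3.1, per the file headers, as a processed signal on a linear scale with background subtracted and arrays left unscaled. The submitters' processing notes name the same version. The value table deposited by the authors holds a linear ratio, with its calculation not given in the sources used here. Within each array, 99.82% to 99.87% of its entries lay within 1% of a constant multiple of the processed signal, with column medians of 0.9999 to 1. This fixes its scale; genes were not centred. Probe coordinates follow the files' build, mm9.

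The analysis dropped control spots and 1403 spots marked as outliers. No spot was saturated. Between 64.6% and 73.8% of an array's spots were well above background, and the number of arrays limits the precision. Log2 processed signals were averaged per probe, after subtraction of each array's 75th percentile. Names of the 39429 probes came from a RefSeq table (GRCm38.p6): 27508 by accession, 3544 by symbol, 404 by synonym, and 7973 kept the name in the file. The brightest probe stood for a gene. Genes were tested if some group had that probe well above background on each of its 4 arrays. The 8 arrays of a comparison were fitted with limma 3.58.1 (R 4.3.3, lmFit and eBayes, two-sided, Benjamini-Hochberg). Fits of single probes were adjusted over 26112 detected probes. Tables and exact tests used Python 3.11.15.

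The members, lists, pairs and motifs were chosen with earlier results of these data known. The text accounts for all members, names of each further list the 2 highest and the 2 lowest called genes, plus Myc, and of marker lists the 2 of smallest p. Of the genes this names, 2 are not reported here. Myh1 and Myh4 were named after their values were seen. Markers of macrophages (2 of 9 called higher, Cd68 1.01 and Lyz2 1.13), red blood cells (5 tested, with Alas2 at 0.86 and Ahsp at −0.86, limma adjusted p = 0.0752 and 0.0888) and adipocytes (2 of 6 lower, Fabp4 −1.26 and Lpl −1.23) were also listed. The marker Hbb-b1 was not analysed here. "At least" folds set the bright group's mean against the higher, per array, of the dimmest detected signal and the probe's own. A summed level is the log2 of the summed scaled signals of a list.

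Deviations from the group mean correlated across genes between both arrays of a mouse, with r of 0.455 (mouse 103), 0.170 (106), 0.143 (107) and 0.282 (110), against −0.329 to 0.193 for different mice. The r of mice 106 and 107 lay below the highest r of different mice, and both arrays of a mouse share a slide. The correlations therefore do not settle the pairing, which rests on the shared numbers in the titles. The mouse as a block was an alternative. Wild-type arrays were on slide 1, mice 103 and 106 on slide 2, mice 107 and 110 on slide 3. Other alternatives were median and quantile scaling, normexp correction (offset 50), the value table, other probe and background filters, a 2-fold minimum, and the omission of arrays. A random slide block over all 12 arrays had a correlation of −0.0816. In simulated data on 20082 genes, 2%, 60%, 76% and 92% of 50 genes changed by 0.5, 1, 2 and 3 were recovered for polyps against Apc normal tissue. In the data 4121 genes were called higher and 5008 lower in this comparison. Far fewer genes changed in the simulation, which makes its adjusted threshold stricter, so these shares do not give the recovery in the data.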

Additional observations from a re-analysis of the deposited data

Results flagged for a closer look

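Among 117 group levels of members (39 genes in 3 groups of 4 arrays), 10 had 1 array far from the other 3, judged by its gap as a share of the group's whole range. Chance gives about 1 in 20 groups such a gap. In wild-type normal tissue these were Slc2a1, low in mouse 105 at 2.92 against 3.28 to 3.34 (share 0.872), and Pfkm, high in mouse 105 at 1.21 against 0.67 to 0.75 (0.858). Gapdh was high there in mouse 102 at 7.75 against 7.58 to 7.6 (0.881) and Pgk1 in mouse 108 at 6.12 against 5.77 to 5.82 (0.861). In Apc normal tissue, Pfkfb1 was high in mouse 110 at −1.82 against −2.41 to −2.33 (0.867), and so was Pdk1 at 0.63 against −0.11 to −0.02 (0.878). Gapdh was low in mouse 103 at 7.58 against 7.77 to 7.79 (0.942). In polyps, Eno1 was low in mouse 103 at 6.42 against 6.55 to 6.57 (0.870) and G6pc3 high in the same mouse at 2.90 against 2.52 to 2.58 (0.857). Fbp2 was low in mouse 106 at 0.72 against 1.35 to 1.48 (0.830). Eno3, Ldhb and Pdk4 on the Apc normal array of mouse 107 did not reach this mark.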

How the results depend on the processing

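For polyps against Apc normal tissue, the 3 higher calls became 5 after quantile normalization and 0 on slide 3 alone. The 17 lower calls became 11 after quantile normalization, 7 with a 2-fold minimum, 3 on slide 2 alone and 2 on slide 3 alone, where fewer arrays were tested. With 1 array left out the counts were 3 to 4 higher and 14 to 17 lower. For polyps against wild-type tissue, the 5 higher calls became 13 after quantile normalization, 12 after normexp correction and 3 with a 2-fold minimum, and the 15 lower calls became 5 with that minimum. Leaving out 1 array gave 4 to 6 higher and 13 to 14 lower. Apc normal against wild-type tissue gave 0 member calls by limma under all 20 alternatives run, with 2 to 9 members at an unadjusted p under 0.05. Non-overlapping isoform pairs numbered 9 to 11 with 1 array left out, and 13 pairs moved 1 way in all 4 mice. For the 9 pairs without overlap this is fixed by the gap. The 13 include Pdk3 over Pdk1, with a change of 0.00 in mouse 107 after rounding. The share for gene pairs in general was not computed. Among called members signs turned for Gapdh, against Apc normal tissue after quantile normalization (0.21) and normexp correction (0.18) and against wild-type tissue after these (0.37 and 0.39) and on its own chromosome's brightest probe (0.02), and for Ldha against wild-type tissue after quantile normalization (0.01). Members not called and below 0 turned and were called higher after quantile normalization, Pkm against Apc normal tissue (0.35) and Tpi1 (0.24), Pkm (0.29), Tkt (0.33) and Taldo1 (0.27) against wild-type tissue. Against wild-type tissue Pkm (0.25), Tkt (0.35) and Taldo1 (0.21) did so after normexp correction too. The causes were not tested. The mouse as a replicate block gave 3 higher and 16 lower calls, and Pgam2 (adjusted p = 0.0520) was the only member call it changed. Reading each gene by a probe on its own chromosome, chosen after seeing the data, gave 3 higher and 16 lower, with Eno1 left out. Of the called members, 1 of 20 against Apc normal and 8 of 20 against wild-type tissue kept the call under every alternative. In simulated data 2% of genes changed by 0.5 were recovered in polyps against Apc normal tissue. Far fewer genes changed there than were called in the data, so that share does not give the recovery here. Small changes may still be missed.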
